A study of Homo sapiens with 58 samples.

Results

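The table of HuR binding sites held 387214 peaks, each 20 nt long, and 48954 of them (12.6%) were grouped as unannotated. These peaks are the subject here. They were taken by that word in the table's grouped annotation column, after repeated entries with the same chromosome, start, end and strand had been dropped. They carried 903020 of the 7887093 tags in all peaks (11.4%), and a peak had a median of 9 tags from 7 libraries. A finer annotation field repeated the word for 38288 peaks (606095 tags) and was blank for the other 10666 (296925 tags). These 2 sets behaved differently and are given separately for the main comparisons, a split chosen after the values were seen. The first is called the named set (word given in the plots) and the second the blank set (blank field).

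HuR, encoded by ELAVL1, is an RNA-binding protein that binds U-rich and AU-rich stretches, mostly in introns and 3'UTRs. It lies largely in the nucleus and moves to the cytoplasm under stress. CLIP sequences the RNA fragments that ultraviolet light has joined to the protein, so a peak outside annotated genes can mark an unlisted noncoding RNA or a stretch beyond a transcript's end. It can also mark a processed pseudogene, a genomic copy of a messenger RNA whose reads are hard to tell from those of its parent gene.

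All 58 libraries came from Huh-7.5, 1 human hepatocellular carcinoma line, which limits every group as a model. Cells were mock treated or received 0.5 mM sodium arsenite, an oxidative stressor, for 45 min. Wild-type cells without the APEX reaction were separated into nuclear and cytoplasmic fractions, with 3 libraries for each of the 4 combinations of fraction and treatment. The other 46 libraries came from lines labelled APEX-NLS, APEX-NES or APEX-G3BP1. They carry a peroxidase that biotinylates its surroundings in the nucleus, in the cytoplasm or next to the stress-granule protein G3BP1. An input library had the HuR precipitation alone, and an enriched library also had a streptavidin capture. There were 4 enriched libraries per treatment for NLS and NES and 2 inputs, and for G3BP 6 mock and 7 arsenite enriched libraries with 4 and 5 inputs. The labels spread them over the library sets JL0361, JL0380 (all fractions), JL0388 and JL1024, and 6 inputs of JL1024 carry the word All in place of a number.

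Depth differed widely. Tags in peaks ran from 235471 to 673322 in the 12 fraction libraries, from 1353 to 484305 in the 17 inputs and from 519 to 86419 in the 29 enriched libraries, and 16 libraries had fewer than 10000. Of 32 pairs of same-group libraries within a set, 5 pairs of enriched libraries, all in JL0388, were not found to differ beyond the sampling noise (chi-square per degree of freedom 0.976 to 1.09, permutation p of 0.059 to 0.79), and counting each as 1 library was tried. Nothing in the labels says that replicates were separate cultures, so p-values measure the spread between these libraries, which may be technical. Of 14 hepatocyte marker genes, 11 had HuR peaks, led by AFP with 13735 tags, while APOA1, APOC3 and TTR had none. Levels are tags per 1000000 of each library's total (CPM), so fewer bound RNA molecules in a fraction and a larger total around them cannot be told apart.

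Genome letters could be read for 68 of the 48954 peaks, those inside a RefSeq promoter window of GRCh38.p14 (250 bases before to 50 after a gene start), and 41 of these lay on the strand opposite to the gene. The following 7 are shown because the SMAD7 and LOC105379064 peaks belong to loci described further on, the NT5C2 and LINC00273 peaks are low in the stressed cytoplasm, and the other 3 begin with a run of T. Each run has 21 letters on the peak's strand, which hold the 20 nt peak whether the table counts from 0 or from 1, and capitals mark runs of 3 or more T.
SMAD7 start, chr18:48951186-48951206, minus strand: accccagttccagccggacgc
NT5C2 start, opposite strand, chr10:103177021-103177041, plus strand: attctcttccacctggTTTTa
LINC00273 start, opposite strand, chr16:34160113-34160133, plus strand: aactgcgaatggctcattaaa
KRTAP19-6 start, opposite strand, chr21:30542014-30542034, plus strand: TTTcttatgtaacaaagggtc
XCL2 start, chr1:168544112-168544132, minus strand: TTTTaagaaaaataaaagcat
UGT1A8 start, chr2:233617587-233617607, plus strand: TTTTTatgacaggataaatac
LOC105379064 start, chr5:86430412-86430432, minus strand: aatgcttatgtgtacaggtat

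T was most common at the 5′ end of the peak. Over the 68 peaks, T made up 46.8% of the first 7 letters, 23.3% of the middle 7 and 19.7% of the last 7. The 573 peaks of all classes in promoter windows had 47.4%, 25.5% and 21.2%, so the slope was much the same. On the peak's strand, TTT was found in 34 of the 68 (50%) against 59.0% of the 573, TTTTT in 8 (11.8%) against 15.2%, and ATTTA in 9 (13.2%) against 5.41%. TATTTAT, the core of an AU-rich element, was in none of the 68 and in 0.35% of the 573, and AAAAA was in 12 (17.6%) against 7.68%. In the much longer 300-base promoter windows, read on either strand, 39.2% held TTTTT or AAAAA, 30.5% ATTTA and 4.93% TATTTAT. The shorter AU motif lies inside the longer one, so those counts overlap. With 40 nt added on each side, TTTTT was present in 75% of the 48 peaks whose window allowed it, against 69.5% of such peaks of all classes. Promoter windows hold few of the unannotated peaks, so these letters describe those 68 only.

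Most of these peaks lay far from any HuR site in a 3'UTR or an intron on the same strand. The median gap was 344838 nt, with quartiles of 85164 and 981816 nt. No peak was within 100 nt of such a site, 35 were within 1000 nt, 965 (1.97%) within 10000 nt and 13343 (27.3%) within 100000 nt, while 11953 (24.4%) were more than 1000000 nt away. The 45 peaks on the mitochondrial chromosome had no such neighbour. Peaks of the table's ncRNA class were as remote, with a median of 317463 nt. CDS peaks had a median of 685 nt and the class called downstream 10K one of 5167 nt.

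**Figure D1:**
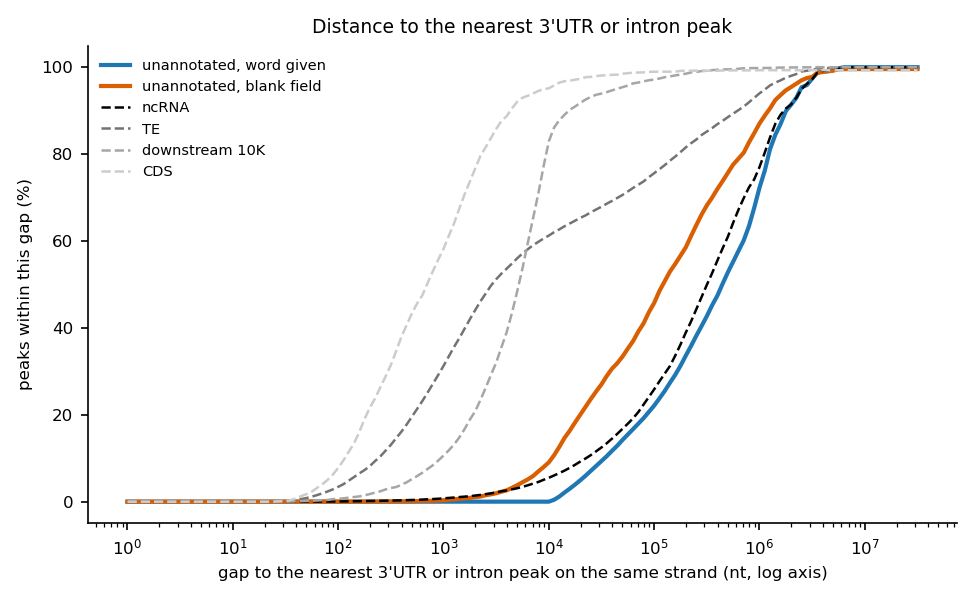
Share of peaks (y axis, percent) whose gap to the nearest 3'UTR or intron peak on the same strand is at most the value on the x axis (nt, log axis), for the 2 unannotated sets (solid) and 4 other classes (dashed). The named set starts just above 10000 nt, and the blank set lies to its left, with 9.05% of its peaks within 10000 nt.

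The named and blank sets differed sharply in this distance. No peak of the named set was within 10000 nt of a 3'UTR or intron site, its lowest gap was 10025 nt and its median was 443662 nt. In the blank set the lowest gap was 135 nt, the median 121148 nt, and 45.7% of the peaks were within 100000 nt. The table has a separate class called downstream 10K, so the boundary at 10000 nt is not read as a finding. On the opposite strand the median gap over all unannotated peaks was 379917 nt, and the opposite-strand site was the nearer one for 47.7%. An intron site was the nearest for 62.5% and a 3'UTR site for 37.5%. When a 3'UTR site was nearest, it lay on the 5′ side of the peak in most cases (32.3% of all unannotated peaks against 5.27% on the 3′ side).

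RefSeq genes were laid over the peaks to see what stands at these positions. For peaks that the table assigns to a gene, 95.5% of 300935 fell inside that RefSeq gene. Of the unannotated peaks, 30353 (62.0%, with 54.4% of the tags) overlapped no RefSeq gene and 6630 (13.5%) overlapped genes on the opposite strand only. Long noncoding RNA genes held 3188 on the same strand and 4132 where the RefSeq table gives no strand. Protein-coding genes held 931 on the same strand and 977 with no strand given. Pseudogenes held 2572 peaks, only 5.25% of the total, but 11.9% of the tags. A further 67 lay in ribosomal RNA genes or their pseudogenes (2.87% of tags) and 45 on the mitochondrial chromosome (2.56%). Pseudogenes took 34.0% of the tags of the blank set and 1.0% of those of the named set.

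Chromosomes differed in how much of their HuR binding was unannotated. The share was 69.2% of the 65 peaks on the mitochondrial chromosome. Among the autosomes it was highest on chromosome 13 (23.8%) and chromosome 5 (16.8%) and lowest on chromosome 17 (5.57%) and chromosome 16 (6.85%).

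In the fractions, the total share of tags in unannotated peaks stayed near 10% while the 2 sets moved in opposite ways. The total was 10.3% ± 0.245 (SD, n = 3) in nuclear mock, 10.6% ± 0.070 in nuclear arsenite, 10.2% ± 0.030 in cytoplasmic mock and 11% ± 0.2 in cytoplasmic arsenite libraries. The named set took 8.06%, 8.26% and 8.48% of the tags in nuclear mock libraries and 6.05%, 5.08% and 4.99% in cytoplasmic mock libraries. After arsenite its share was 7.93%, 8.11% and 8.11% in the nucleus and 7.83%, 7.63% and 7.76% in the cytoplasm. The cytoplasmic mock libraries were thus the low group, and did not overlap the other 3 groups.

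The blank set ran the other way. It took 1.97%, 2.07% and 2.04% in nuclear mock libraries and 4.18%, 5.13% and 5.28% in cytoplasmic mock libraries. After arsenite the values were 2.72%, 2.42% and 2.42% in the nucleus and 3.40%, 3.21% and 3.19% in the cytoplasm. The mock and arsenite libraries did not overlap in either fraction: the nuclear mean was 0.492 percentage points higher with arsenite and the cytoplasmic mean fell by 1.59 points. These shares are descriptions and were not tested. The 95% Wilson interval of the total share in the shallowest fraction library was 9.91% to 10.2%, which covers counting error only.

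**Figure D2:**
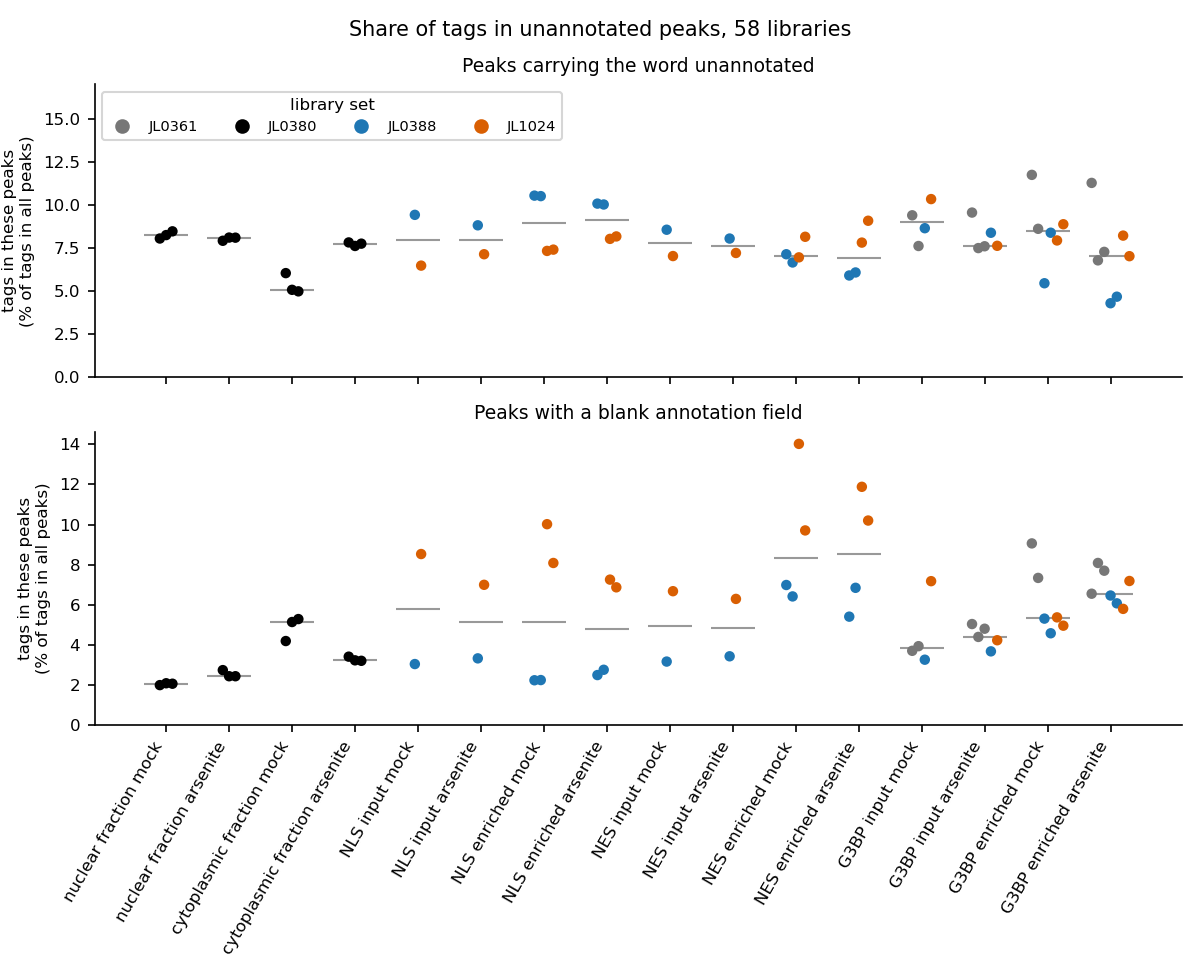
Share of each library's tags in peaks (y axis, percent) that fell in the named set (upper panel) and the blank set (lower panel), 1 point per library for all 58 libraries in their 16 groups, coloured by library set, with the group median as a line. Cytoplasmic mock libraries are the lowest fraction group for the named set (4.99% to 6.05%) and the highest for the blank set (4.18% to 5.28%).

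In the APEX lines the library set moved with the share of the blank set as much as the line did. In NLS enriched libraries the blank set took 2.22% to 2.74% in JL0388 and 6.86% to 10.0% in JL1024. In NES enriched libraries it took 5.40% to 6.98% in JL0388 and 9.70% to 14% in JL1024. Within JL0388 the NLS values lay below the NES values of the same treatment, as they did with arsenite in JL1024, while in JL1024 the mock values overlapped (10.0% and 8.08% for NLS, 14% and 9.70% for NES). In G3BP enriched libraries the blank set took a median of 5.33% in mock and 6.54% in arsenite, with overlapping ranges of 4.57% to 9.06% and 5.79% to 8.08%. The part of the library set in these shares was not tested. The total share was 10.7% to 21% over the 29 enriched libraries and 11.5% to 17.5% over the 17 inputs. The highest enriched value came from a library with 5011 tags in peaks and the highest input value from one with 1353.

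Grouped by the gene at their position, the peaks separated into a cytoplasmic and a nuclear part. The summed level of peaks in pseudogenes was 1479 ± 48 CPM in nuclear mock libraries and 9131 ± 1706 CPM in cytoplasmic mock libraries (SD, n = 3), a nuclear to cytoplasmic ratio of 0.16. With arsenite it was 2468 ± 216 CPM in the nucleus and 4409 ± 228 CPM in the cytoplasm. The 2 fractions and the 2 treatments did not overlap. Peaks in same-strand long noncoding RNA genes had 3575 ± 119 CPM in nuclear mock, 2166 ± 328 in cytoplasmic mock, 3429 ± 224 in nuclear arsenite and 3377 ± 94 in cytoplasmic arsenite libraries, with a mock ratio of 1.65. Peaks outside any RefSeq gene had 22305 ± 592 and 18011 ± 804 CPM in the 2 mock groups and 22992 ± 841 and 23345 ± 380 CPM with arsenite, in the order nuclear then cytoplasmic. For both of these groups the cytoplasmic mock libraries lay below all other fraction libraries. The total outside RefSeq genes hides a split: the named set had 19001 ± 503 CPM in nuclear and 13030 ± 1204 CPM in cytoplasmic mock libraries (ratio 1.46), and the blank set 3305 ± 91 and 4980 ± 500 CPM (ratio 0.66). Of the 2572 pseudogene peaks, 2163 were of the blank set (ratio 0.14) and 409 of the named set (ratio 0.88). Peaks on the opposite strand of a gene only had 2607 ± 58 and 3781 ± 353 CPM in mock (ratio 0.69) and 3314 ± 41 and 4015 ± 53 CPM with arsenite. Mitochondrial peaks summed to 472 ± 37 and 1078 ± 191 CPM in mock and to 309 ± 71 and 414 ± 82 CPM with arsenite.

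**Figure D3:**
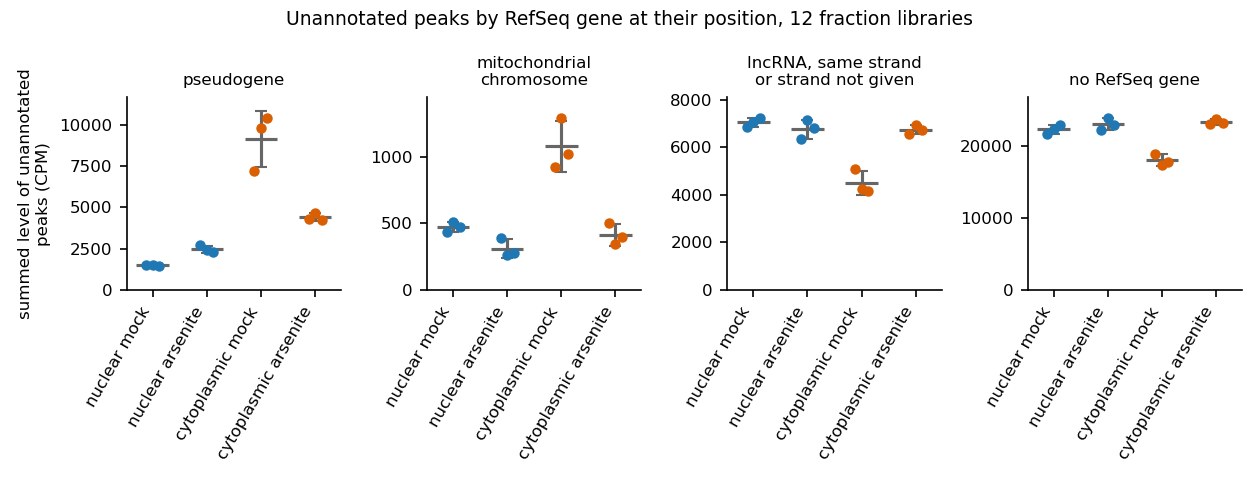
Summed level (y axis, CPM) of unannotated peaks in each of the 12 fraction libraries, in 4 panels by the RefSeq gene at the peak, with points for libraries and a line and bar for the mean and SD of 3. Pseudogene and mitochondrial peaks are highest in cytoplasmic mock libraries, and peaks in long noncoding RNA genes or outside genes, with both sets pooled, are lowest there. Outside genes the blank set alone is highest in cytoplasmic mock (4980 CPM).

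The ratio also varied with distance. Over all unannotated peaks the nuclear to cytoplasmic ratio of summed mock levels was 0.88 for gaps up to 10000 nt, 0.68 from there to 30000 nt, 0.48 to 100000 nt, 0.78 to 300000 nt, 1.19 to 1000000 nt and 1.24 beyond. In the named set it ran from 1.00 (30000 to 100000 nt) to 1.55 (beyond 1000000 nt). In the blank set it stayed below 1 in every distance class, from 0.23 to 0.88.

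Peak by peak, the nuclear and cytoplasmic mock libraries were compared with limma on log2(CPM + 2.28), over all peaks above 0 in at least 3 of the 6 libraries, with Benjamini-Hochberg adjustment and a threshold of 0.05. Of 15953 unannotated peaks tested, 79 were higher in the nucleus and 372 were lower. Over all 157168 peaks tested the shares were 2.82% called, 0.53% higher and 2.29% lower, so the unannotated peaks as a whole were called at the background rate (2.83%). Within them the sets differed: the named set had 73 higher and 76 lower of 12448, and the blank set 6 higher and 296 lower of 3505 (8.62% called). Among peaks above 0 in all 6 libraries, a filter that keeps far fewer, the named set had 145 higher and 36 lower of 1448, and all unannotated peaks 161 and 202 of 1889. Over all peaks at that filter, 1336 were higher and 3079 lower of 19350. With the main filter, pseudogene peaks had 0 higher and 171 lower of 1038, mitochondrial peaks 0 and 11 of 44, same-strand long noncoding RNA peaks 13 and 3 of 1422, and peaks outside RefSeq genes 48 and 107 of 10120. edgeR's quasi-likelihood test on the recovered tags called 68 higher and 354 lower, and 377 peaks were called by both. The counts rested on single libraries: leaving out cytoplasmic mock replicate 1, 2 or 3 left 69, 0 and 19 calls, nuclear mock replicates 2 and 3 left 55 and 93, and leaving out nuclear mock replicate 1 gave 1827 calls with 1510 of them higher. Over all peaks these settings gave 605, 0 and 191, then 544 and 810, and last 16620 calls with 13503 of them higher. In that last fit 24056 unannotated peaks and 222840 peaks in all were tested. With 2 libraries in a group, more sparse peaks also passed the filter.

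With arsenite the fractions were closer together. Of 26806 unannotated peaks tested, 8 were higher and 53 lower in the nucleus (all peaks: 0.257% called, 0.11% higher, 0.147% lower). The blank set gave 38 of the lower calls and pseudogenes 24. edgeR called 31 higher and 137 lower, and 59 were called by both. With any 1 of the 6 libraries left out, limma made 0 to 4 calls: 4, 3 and 0 without nuclear arsenite replicates 1, 2 and 3, and 1, 0 and 3 without the cytoplasmic ones. Over all peaks these settings gave 57, 51 and 0 calls, and 35, 0 and 43. Of the 451 peaks called in mock and the 61 called with arsenite, 44 were shared (9.76% and 72.1%), and 43 of these had the same direction. These comparisons share no library.

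Arsenite was then set against mock within each fraction. In the cytoplasm 62 unannotated peaks were higher with arsenite and 101 lower of 21751 tested (all peaks: 0.76% called, 0.24% higher, 0.52% lower). The named set had 49 higher and 21 lower, the blank set 13 and 80, and pseudogenes 0 and 45 of 1564. edgeR called 130 higher and 215 lower, including all 163 called by limma. With the pseudocount divided by 4 the balance turned to 675 higher and 162 lower. Over all 193897 peaks it turned to 5162 higher and 1600 lower, so the turn was not particular to unannotated peaks. Without cytoplasmic mock replicate 1, 2 or 3 there were 16, 0 and 4 calls, and without cytoplasmic arsenite replicate 1, 2 or 3 there were 1951, 2180 and 1923, mostly higher. Over all peaks these settings gave 220, 0 and 43 calls, and 15337, 16959 and 14659, also mostly higher. In the nucleus 21 were higher with arsenite and 3 lower of 21026 tested (all peaks: 0.186% called, 0.152% higher, 0.034% lower), and 5 of the 21 were in pseudogenes. edgeR called 37 and 10, with 23 in both. Among the 3177 peaks above 0 in all 6 libraries the counts were 59 higher and 49 lower, and the named set turned from 9 and 0 to 24 and 44. Over all peaks at that filter, 1057 were higher and 563 lower of 30460. Without nuclear mock replicate 1, 2 or 3 there were 0, 2 and 4 calls, and without nuclear arsenite replicates 1, 2 and 3 there were 0, 0 and 1164. Over all peaks these settings gave 1, 98 and 127 calls, and 1, 1 and 8614.

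Whether arsenite acted differently in the 2 fractions was tested by an interaction over the 12 fraction libraries, a test added after the values were seen. Of 38921 unannotated peaks, 84 had a higher arsenite difference in the nucleus than in the cytoplasm and 8 a lower one (all peaks: 0.352% called, 0.318% higher, 0.0344% lower). The blank set gave 70 of the 84, from 8476 tested, and the named set 14 from 30445. By position, 44 of the 84 were in pseudogenes and 23 outside RefSeq genes. Cytoplasmic arsenite libraries lay below mock without overlap for 74 of the 84, nuclear arsenite libraries above mock for 40, and both for 31. The 84 were picked by the interaction in these same libraries, so these 3 counts follow in part from that choice. They were not counted over all peaks. edgeR called 70 and 10, and 66 were called by both. Leaving out 1 library gave 53 to 130 calls, the fewest without cytoplasmic arsenite replicates 1 and 3 (53 and 57), nuclear arsenite replicate 1 (56) and nuclear mock replicate 2 (61). In this fit limma drew the variances strongly to a trend with the mean (141 prior degrees of freedom, with the median SD of the 200 highest peaks going from 0.255 to 0.209). Without that trend 160 peaks were called, and for single peaks edgeR's adjusted p is given below.

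The 10 unannotated peaks of highest mean level in the fractions lay in pseudogenes or ribosomal RNA in 6 cases. In mock cells, 9 of them were lower in the nucleus than in the cytoplasm without overlap. The highest, at chr18:62443250-62443270 on the plus strand, lies in ACTBP9, a pseudogene of the beta-actin gene ACTB. It had 154, 119 and 105 CPM in nuclear mock and 1002, 1349 and 1411 CPM in cytoplasmic mock libraries, lower in the nucleus on the log2 scale (-3.29, SE 0.16, adjusted p = 3.2e-05 by limma). With arsenite it had 293, 293 and 225 CPM in the nucleus and 424, 442 and 438 CPM in the cytoplasm. It rose in the nucleus (log2 difference 1.09, adjusted p = 0.011) and fell by 1.51 in the cytoplasm (adjusted p = 0.0019), and the interaction was 2.60 (edgeR adjusted p = 1.0e-10). No 2 of the 4 groups overlapped.

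The other actin pseudogene peaks among these 10 were also highest in cytoplasmic mock libraries. The peak at chr1:223863604-223863624 on the minus strand, in ACTBP11, had 30.6, 41.8 and 46.3 CPM in nuclear mock and 544, 807 and 893 CPM in cytoplasmic mock libraries. It had 78.5, 66.4 and 37.3 CPM in nuclear arsenite and 127, 178 and 137 CPM in cytoplasmic arsenite libraries. It was lower in the nucleus by limma (-4.15 ± 0.21, adjusted p = 3.4e-05) and fell by 2.31 with arsenite in the cytoplasm (adjusted p = 0.0019), while the nuclear groups overlapped. The peak at chr5:77786138-77786158 on the plus strand, in ACTBP2, had the most negative difference of all called unannotated peaks in mock, -4.21 ± 0.33 (limma adjusted p = 0.00031). It had 11.7, 27.3 and 29.9 CPM in nuclear mock against 304, 503 and 542 CPM in cytoplasmic mock libraries.

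Actin pseudogenes as a family held 16 unannotated peaks in 6 pseudogenes with 22462 tags. Their summed level was 227, 226 and 220 CPM in nuclear mock, 531, 490 and 383 in nuclear arsenite, 2087, 3014 and 3239 in cytoplasmic mock and 957, 1006 and 958 in cytoplasmic arsenite libraries. The 6 peaks that the table assigns to ACTB itself had means of 249.5, 490.5, 2385 and 1032 CPM in the same order. The family and its parent thus stood at similar levels in every group. A read that fits both cannot be assigned by these files, so which copy was bound is uncertain. Limma called 13 of 15 lower in the nucleus in mock and 5 of 15 lower with arsenite in the cytoplasm, against 2.29% and 0.52% of all peaks. Since copies may share reads, the 15 peaks are not independent readings.

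Other families had the same direction at lower levels. In all, 2639 unannotated peaks lay in 1272 pseudogenes including ribosomal ones, and 1920 of them had a parent gene that could be named, 475 parents in total. For 382 of the 475 the summed mock level was lower in the nucleus. Pseudogenes of EEF1A1, the translation elongation factor, had 18.9, 21.8 and 22.2 CPM in nuclear mock and 191, 265 and 271 CPM in cytoplasmic mock libraries. Pseudogenes of PTMA, prothymosin alpha, had 26.2, 23.6 and 14.5 against 162, 186 and 266 CPM. Those of HNRNPA1, a splicing regulator, had 8.74, 10.9 and 8.69 against 101, 108 and 150 CPM. The families of HMGN2, a nucleosome-binding protein, and of SET, a histone chaperone, also had no overlap between the fractions. Pseudogenes of GUSB, the lysosomal beta-glucuronidase, were the exception among the largest families: 182 peaks in 6 pseudogenes summed to 136, 109 and 132 CPM in nuclear mock and 111, 86.6 and 68.5 CPM in cytoplasmic mock libraries. These ranges overlapped, and none of their 66 tested peaks was called. Over all peaks 2.82% were called, so a lack of calls among 66 peaks shows little.

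The second highest of the 10 was a ribosomal peak. The peak at chr21:8254984-8255004 on the plus strand overlaps RNA18SP5, a copy of 18S ribosomal RNA. It had 152, 177 and 169 CPM in nuclear mock and 479, 669 and 738 CPM in cytoplasmic mock libraries (-1.89 ± 0.15 on the log2 scale, limma adjusted p = 0.00037). With arsenite it had 347, 231 and 334 CPM in the nucleus and 538, 384 and 467 CPM in the cytoplasm. Only the nuclear change passed the limma test (0.85, adjusted p = 0.035), and edgeR did not call it (adjusted p = 0.22).

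The mitochondrial peak at chrMT:3197-3217 in RNR2, the large ribosomal RNA of mitochondria, fell with arsenite in both fractions. It had 387, 475 and 365 CPM in cytoplasmic mock and 48.4, 44.3 and 45.9 CPM in cytoplasmic arsenite libraries, a fall of 3.08 on the log2 scale (limma adjusted p = 0.00020), the most negative of the called unannotated peaks in that comparison. In the nuclear fraction it went from 210, 250 and 247 to 128, 102 and 95.3 CPM (-1.11, adjusted p = 0.0044). With arsenite it was higher in the nuclear fraction than in the cytoplasmic one (1.18, adjusted p = 0.0022), and in mock it was lower (-0.78, limma adjusted p = 0.0099, edgeR adjusted p = 0.105). A second mitochondrial peak, at chrMT:622-642 in the transfer RNA gene TRNF, fell by 1.80 with arsenite in the nuclear fraction (21.9, 20.002 and 33.8 against 4.80, 6.4 and 5.20 CPM, limma adjusted p = 0.024).

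**Figure D4:**
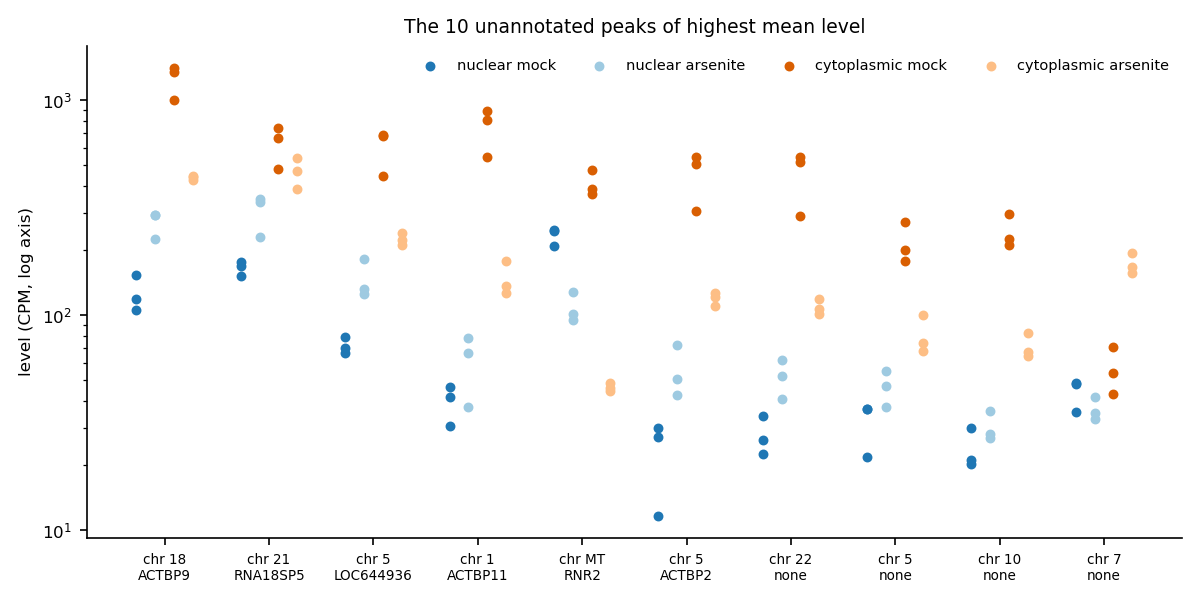
Level (y axis, CPM, log axis) of the 10 unannotated peaks of highest mean level in each of the 12 fraction libraries, 1 point per library, labelled by chromosome and by the RefSeq gene at the peak, with none where no RefSeq gene is on the peak's strand. Cytoplasmic mock points are the highest for 8 peaks. For RNA18SP5 they overlap cytoplasmic arsenite, and for the last peak, on chromosome 7, the cytoplasmic arsenite points are the highest (157 to 195 CPM).

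Of the other peaks among the 10, the one in LOC644936, a transcribed pseudogene, at chr5:80299536-80299556 on the minus strand followed the actin peaks. It had 67.0, 70.0 and 79.2 CPM in nuclear mock and 445, 690 and 681 CPM in cytoplasmic mock libraries, and the interaction was 2.37 (edgeR adjusted p = 6.2e-10). Peaks with no RefSeq gene at chr22:41074017-41074037 (minus strand, 192343 nt from an intron site of RANGAP1) and chr5:55838130-55838150 (minus strand, 88145 nt from one of SLC38A9) also were lower in the nucleus in mock, by -3.88 ± 0.25 and -2.70 ± 0.24 (limma adjusted p = 0.00012 and 0.00055). So was a peak of the named set at chr10:70352233-70352253 (plus strand, opposite to LRRC20), which had 20.4, 30.0 and 21.2 against 212, 227 and 294 CPM (-3.24 ± 0.21, limma adjusted p = 0.00012).

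The last of the 10 differed in that its fractions overlapped in mock and in its response to arsenite. At chr7:145905914-145905934 on the plus strand, 210612 nt from the nearest intron site of CNTNAP2, a peak of the named set had 48.1, 35.5 and 48.3 CPM in nuclear mock and 71.3, 42.8 and 53.8 CPM in cytoplasmic mock libraries, which overlapped. With arsenite it had 35.2, 32.8 and 41.6 CPM in the nucleus and 157, 167 and 195 CPM in the cytoplasm. It rose in the cytoplasm (1.61 ± 0.21, limma adjusted p = 0.0099), and its interaction was -1.86 (edgeR adjusted p = 5.4e-05). Other peaks of the same stretch behaved differently. The peak at chr7:145863925-145863945 was higher in the nucleus in mock (13.1, 14.5 and 16.4 against 3.19, 1.02 and 0 CPM, 2.29 ± 0.36, limma adjusted p = 0.0095), and the peak at chr7:145867904-145867924 was higher in the nucleus with arsenite (12.8, 24.8 and 31.2 against 5.78, 4.55 and 4.17 CPM, 1.76 ± 0.31, limma adjusted p = 0.026).

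Among the peaks higher in the nucleus in mock cells, the largest difference was at chr12:97876128-97876148 on the minus strand, 748404 nt from an intron or 3'UTR site. It had 16, 17.3 and 20.3 CPM in nuclear mock and 0, 0 and 1.05 CPM in cytoplasmic mock libraries (2.95 ± 0.30, limma adjusted p = 0.0011), on 51 tags and 1 tag. A peak in the long noncoding RNA BALR6 at chr3:18111140-18111160 had 14.6, 7.27 and 6.76 against 0, 0 and 1.05 CPM (2.13 ± 0.35, limma adjusted p = 0.011). Next after ACTBP2 and ACTBP11 among the lowest in mock was a peak at chr3:33077692-33077712 opposite to GLB1, a lysosomal galactosidase gene (1.46, 2.73 and 0 against 46.8, 46.9 and 92.8 CPM, -4.13 ± 0.39, limma adjusted p = 0.00070).

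With arsenite, the fractions still differed most at a peak in ACTR2P2, a pseudogene of an actin-related protein gene, at chr19:20261143-20261163. It had 2.40, 1.60 and 5.20 CPM in the nucleus and 39.0, 40.4 and 36.9 CPM in the cytoplasm (-2.99 ± 0.28, limma adjusted p = 0.00017). Peaks at chr11:1802011-1802031 and in the ribosomal protein pseudogene RPL23P6 at chr6:39958520-39958540 were lower in the nucleus by -2.63 and -2.61 (limma adjusted p = 0.00017 and 0.00045). In the opposite direction stood a peak opposite to MSI2, an RNA-binding protein gene, at chr17:57597450-57597470. It had 8.01, 12.8 and 15.6 CPM in the nucleus and 1.44, 1.71 and 0 CPM in the cytoplasm (2.12 ± 0.32, limma adjusted p = 0.0089).

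The largest rises with arsenite in the cytoplasm were at chr5:86521382-86521402 on the minus strand, where the 3 mock libraries had 6.38, 4.07 and 3.16 CPM and the arsenite libraries 42.6, 25.6 and 36.9 CPM (2.45 ± 0.29, limma adjusted p = 0.0069). Next were chr13:81331627-81331647 (1.06, 2.04 and 0 against 15.2, 13.6 and 11.8 CPM, adjusted p = 0.011) and chr2:78414076-78414096 (0, 3.06 and 3.16 against 15.2, 14.2 and 20.9 CPM, adjusted p = 0.028). The latter pair lies in chains of unannotated peaks on chromosomes 13 and 2. The largest falls after RNR2 were in KRT8P3, a keratin pseudogene on chromosome 8 (19.1, 42.8 and 47.5 against 1.44, 5.12 and 2.09 CPM), and at chr1:147084580-147084600 (15.9, 12.2 and 11.6 against 0.722, 0 and 0 CPM), with log2 differences of -2.88 and -2.62 (limma adjusted p = 0.011 and 0.0042).

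The 3 peaks that rose most with arsenite in the nucleus lay outside RefSeq genes. The peak at chr10:86610995-86611015 had 2.91, 0 and 2.90 CPM in mock and 32.8, 25.6 and 18.2 CPM with arsenite (2.78 ± 0.37, limma adjusted p = 0.0099). The peak at chr18:48951314-48951334, 9969 nt from a site of SMAD7, an inhibitor of TGF-beta signalling, had 2.91, 4.55 and 2.90 CPM in mock and 32.0, 31.2 and 32.9 CPM with arsenite (2.59 ± 0.26, limma adjusted p = 0.0015). It lies close to the start of SMAD7 whose letters are shown above. In the cytoplasm it had 8.51, 22.4 and 9.49 CPM in mock and 47.7, 33.0 and 37.6 CPM with arsenite, which limma did not call (adjusted p = 0.068) and edgeR did (adjusted p = 0.0058). The peak at chrX:66073183-66073203 had 0, 0.909 and 0 CPM in nuclear mock, on 1 tag, and 12.8, 16.8 and 8.66 CPM in nuclear arsenite libraries (2.52 ± 0.32, limma adjusted p = 0.0086). The most negative called difference was at chr1:28648832-28648852, which fell by 1.96 (limma adjusted p = 0.036).

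Of the 7 peaks whose letters are shown, the one opposite to the start of NT5C2 passed the tests. It had 1.46, 0 and 0 CPM in nuclear mock, 5.32, 5.09 and 8.44 CPM in cytoplasmic mock and 0, 0.568 and 0.696 CPM in cytoplasmic arsenite libraries. It was lower in the nucleus (-1.65 ± 0.33, limma adjusted p = 0.029) and fell with arsenite in the cytoplasm (-1.65 ± 0.28, limma adjusted p = 0.032). The peak opposite to LINC00273 had 4.25, 4.07 and 4.22 CPM in cytoplasmic mock and 0, 1.14 and 0 CPM in cytoplasmic arsenite libraries, which missed the threshold (limma adjusted p = 0.068). RefSeq puts a pseudogene at both of these positions.

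Many unannotated peaks came in chains. Joined over gaps of up to 1000 nt on a strand, they formed 30430 clusters, of which 23205 (76.3%) were single peaks and the largest, at chr13:81261379-81271007 on the minus strand, had 39. Its summed level was 164 ± 11.3 CPM in nuclear mock, 106 ± 15.7 in cytoplasmic mock, 145 ± 2.1 in nuclear arsenite and 134 ± 16.8 in cytoplasmic arsenite libraries. The next 4 had 32 peaks (chromosome 7, near CNTNAP2), 28 and 24 (chromosome 2) and 27 (chromosome 5), with mock ratios of 1.42 to 1.83. Allowing gaps of up to 5000 nt gave 19877 clusters. Of these, 24 held 100 or more peaks each, together 4564 (9.32%) with 165526 tags, and the 5 with the most peaks held 1665.

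The 5 loci were higher in the nuclear than in the cytoplasmic mock libraries, and differed in the nuclear change with arsenite. At chr3:18041939-18291361 on the plus strand, 402 peaks lay mostly in BALR6 (375 on its strand). They summed to 729, 726 and 791 CPM in nuclear mock and 498, 367 and 357 CPM in cytoplasmic mock libraries, and to 673, 782 and 742 CPM and 717, 782 and 745 CPM with arsenite. At chr5:86292937-86490433 on the minus strand, 380 peaks, 146 of them in LOC105379064, summed to 1074, 1061 and 1098 CPM in nuclear mock and 740, 531 and 501 CPM in cytoplasmic mock libraries. With arsenite they had 815, 946 and 848 CPM and 823, 861 and 818 CPM. In mock the fractions did not overlap at either locus, and with arsenite they did. The nuclear arsenite libraries lay below nuclear mock at the chromosome 5 locus and overlapped them at the chromosome 3 locus.

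The other 3 loci followed. At chr1:194112826-194357536 on the minus strand, 316 peaks, 277 of them in the long noncoding RNA LOC107985242, had 647 ± 14.3 CPM in nuclear and 391 ± 73.5 CPM in cytoplasmic mock libraries, and 635 ± 35.5 and 628 ± 16.9 CPM with arsenite. At chr13:81197884-81339354 on the minus strand, 306 peaks had 1040 ± 16.1 and 679 ± 72.1 CPM in mock and 988 ± 19.3 and 950 ± 28.6 CPM with arsenite, where the fractions still did not overlap. The nearest 3'UTR or intron site on that strand is in the 3'UTR of SPRY2, at least 861176 nt away. At chr2:78396481-78540512 on the minus strand, 261 peaks, 226 of them at LOC124906027, had 720 ± 37.1 and 382 ± 50.6 CPM in mock and 609 ± 53.2 and 585 ± 36.9 CPM with arsenite. Nuclear arsenite libraries lay below nuclear mock without overlap on chromosomes 13 and 2, and overlapped them on chromosome 1. Over the 5 loci the nuclear to cytoplasmic ratio was 1.53 to 1.88 in mock and 0.98 to 1.04 with arsenite.

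Few single peaks of these loci were called, though the share called higher was above that of all peaks. In mock, limma called 1, 6, 3, 4 and 7 of them higher in the nucleus and none lower, in the order chromosome 3, 5, 1, 13 and 2 and from 266, 311, 216, 267 and 206 tested. With arsenite in the cytoplasm it called 5, 6, 2, 8 and 2 higher and none lower. Together that was 21 of 1266 (1.66%) higher in the nucleus against 0.53% of all peaks, and 23 of 1381 (1.67%) higher with arsenite against 0.24%. In either direction, 2.82% and 0.76% of all peaks were called in these comparisons. The loci held 3.40% of the unannotated peaks and 74903 of their 903020 tags, so their peaks were deeper than unannotated peaks as a whole. The part of depth in these calls was not tested. The loci were chosen by their number of peaks. Each locus had tags in at least 16 of 17 inputs and 25 of 29 enriched libraries.

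**Figure D5:**
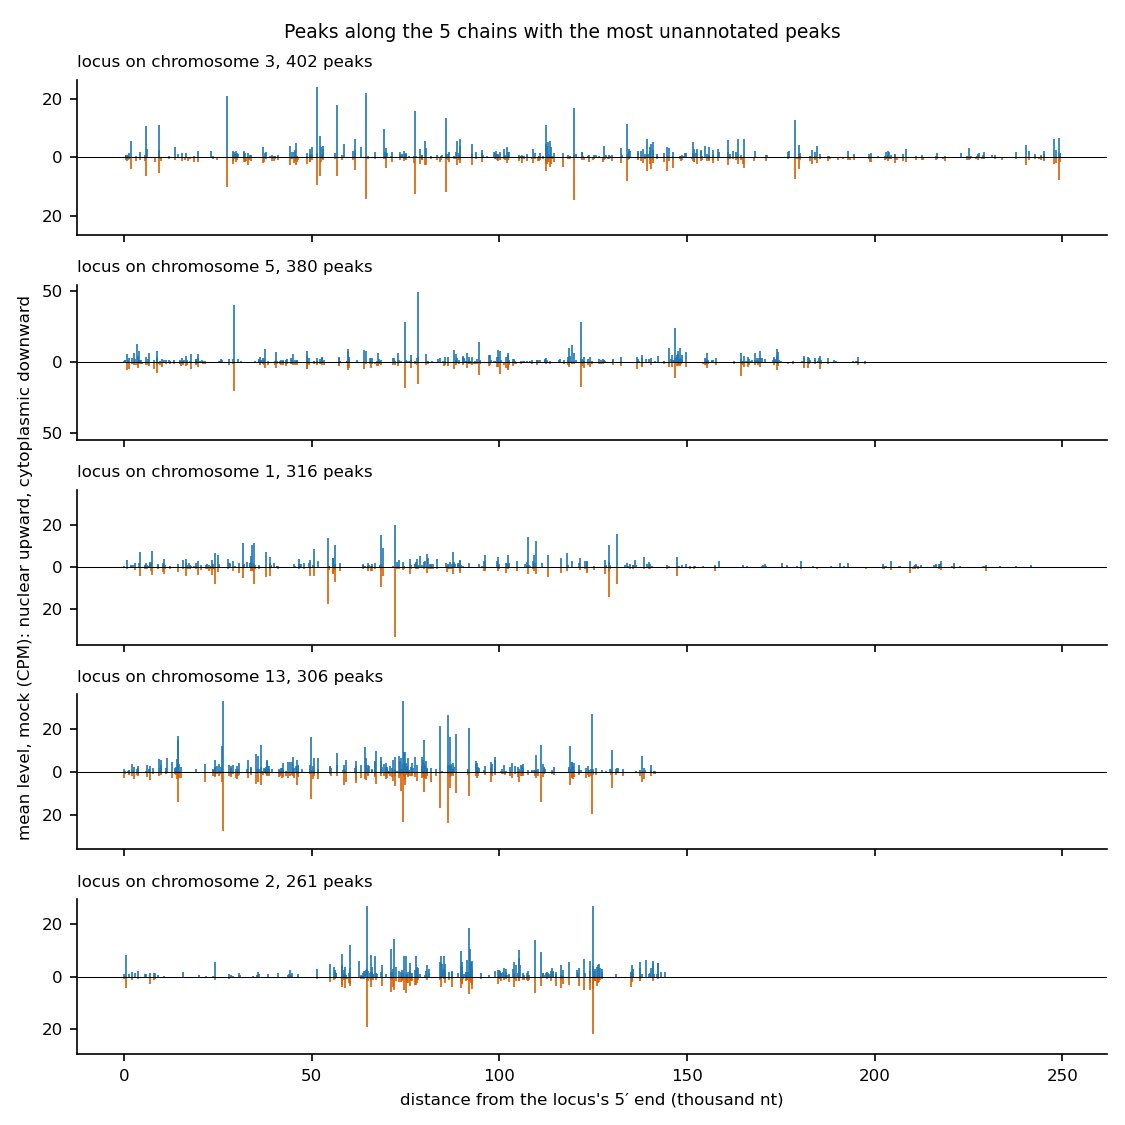
Mean level (y axis, CPM) of each unannotated peak in nuclear mock (upward) and cytoplasmic mock (downward) libraries along the 5 loci with the most peaks, against distance from the locus's 5′ end (x axis, in units of 1000 nt). Tags are spread over many peaks in every locus, and the upward bars are mostly longer, as in the summed ratios of 1.53 to 1.88.

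In the enriched libraries few unannotated peaks had enough tags to test, and limma performed poorly there on simulated data. It missed most changed peaks, and for NLS against NES in mock it made more false calls than true ones, so neither the counts of 0 nor the calls of this paragraph are firm. NLS against NES, with library set as a covariate, gave 0 called of 169 in mock and 0 of 306 with arsenite, where 29 and 28 had an unadjusted p under 0.05 and edgeR called 1 and 2 (all peaks: 0% called in both). G3BP against NES, over the 4 libraries a group of JL0388 and JL1024, which hold both lines, gave 0 of 129 in mock and 0 of 175 with arsenite, with 5 and 27 at an unadjusted p under 0.05 and 0 and 8 by edgeR (all peaks: 0% and 0.491% called). Fits within 1 library set had 2 libraries a group, no covariate and other peaks tested, so their counts are not a test of the set. There, NLS against NES in mock gave 375 higher and 14 lower of 648 in JL0388 and 253 higher and 5 lower of 727 in JL1024 (all peaks: 56.7% and 40.3% called). With arsenite it gave 0 of 556 and 0 of 1497 (all peaks: 0% in both), where 297 and 405 had an unadjusted p under 0.05. In JL0388 the NLS mock, G3BP mock, NLS arsenite, NES arsenite and G3BP arsenite libraries are the 5 pairs not found to differ beyond the sampling noise. Both groups of the JL0388 arsenite fits may hold 1 library each, so those fits may have no replication. In the JL0388 mock fits the NLS group and the G3BP group may also hold 1 library each. The calls of those mock fits may then rest on replication in the NES group alone. With each of the 5 pairs counted once, NLS against NES in mock had 42 higher and 1 lower of 347 (all peaks: 13.5% called). Without NLS mock replicate 1, 2, 3 or 4 it had 0, 27, 35 and 38 calls of 294, 319, 249 and 268 tested. Over all peaks these fits called 0 of 1577, 158 of 1712, 230 of 1562 and 212 of 1591. Without NES mock replicate 1, 2, 3 or 4 the comparison had 0, 1, 0 and 0 calls, and the same counts over all peaks. G3BP against NES in mock gave 0 higher and 31 lower of 90 in JL0388 and 0 of 1136 in JL1024 (all peaks: 29.5% and 0% called), and 0 of 305 with pairs counted once (all peaks: 0%). With arsenite it gave 0 of 328 in JL0388 and 9 higher and 284 lower of 907 in JL1024 (all peaks: 0% and 32.6% called), and 0 of 361 with pairs counted once (all peaks: 0.137%). The shares of unannotated peaks called were near these, at 60.03% and 35.5% for NLS against NES in mock (12.4% with pairs counted once), 34.4% for G3BP against NES in JL0388 mock and 32.3% in JL1024 arsenite libraries. The highest peak, in ACTBP9, had a median of 131 CPM over the 29 enriched libraries, 27 of which were above 0, and of 114 CPM over the 17 inputs. The RNA18SP5 peak had a median of 26.1 CPM in enriched libraries and 311 CPM in inputs.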

How the data were processed

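HuR CLIP was sequenced in 58 Huh-7.5 libraries. The submitters' processing notes name Bowtie2, SAMtools, bedtools, HOMER and GRCh38.p14, with no roles given. The deposited table gave, per peak and library, a normalized coverage signal made by the authors, a score and a total tag signal. Every signal value was a whole number of tags within 0.01 after division by that library's step, so tags were recovered. Of 395471 entries, 8257 repeats were dropped. The members and lists were chosen with earlier results of these data known.

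Levels in CPM were tested as log2(CPM + 2.28) with limma 3.58.1 in R 4.3.3, over all peaks above 0 in a number of libraries equal to the smaller group's size or more, with Benjamini-Hochberg adjustment at 0.05. Library set was a covariate for the enriched libraries. edgeR 4.0.16's quasi-likelihood test on the recovered tags was an alternative. The interaction was added after the values were seen. On simulated data the limma fits of the fraction libraries recovered most changed peaks with no false calls. The interaction recovered a majority with few false calls. The changed peaks were among those with the most tags. Recovery of peaks with few tags was not tested, and unannotated peaks had a median of 9 tags. In the enriched libraries limma recovered a minority in every comparison, none for G3BP against NES in mock, and for NLS against NES in mock its false calls outnumbered the true ones. edgeR made almost no false calls. Fits within 1 set were not simulated. Named peaks were the 10 of highest mean over the fraction libraries, the 3 most positive and 3 most negative called peaks without overlap in each comparison (1 per cluster), and the 5 clusters with the most peaks. RefSeq tables gave no strand for pseudogenes. Alternatives varied the pseudocount, filter, scaling, tool, replicate block, library set and left-out library. Intervals cover counting error only.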

Additional observations from a re-analysis of the deposited data

Results flagged for a closer look

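Of the 5 G3BP input libraries with arsenite, replicate 1 had 14.6% of its tags in unannotated peaks against 11.9%, 11.9%, 12.1% and 12.4% in the others, and it had 2666 tags in peaks. In the same group, replicate 4 had 0.552% of its tags in mitochondrial peaks against 0.124%, 0.165%, 0.195% and 0.225%. These 2 libraries stood apart by Dixon's criterion among 32 tests, and chance marks about 1 in 20 groups.

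The arsenite difference was not the same in the nuclear and cytoplasmic fractions for 14 named peaks, by the interaction in limma. As nuclear minus cytoplasmic log2 difference it was 2.60 for ACTBP9, 2.85 for ACTBP11, 3.09 for ACTBP2, 2.37 for LOC644936, 1.27 for RNA18SP5 and 1.96 for RNR2. It was 2.81 for the peak at 41074017 on chromosome 22, 1.93 for the one at 55838130 on chromosome 5, 2.06 for the one opposite to LRRC20 and -1.86 for the one at 145905914 on chromosome 7. It was 2.68 for the peak opposite to GLB1, 2.48 for the one at 86610995 on chromosome 10, 2.86 for the one at 66073183 on chromosome X and 2.20 for KRT8P3. edgeR did not call KRT8P3 (adjusted p = 0.41).

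The share of tags in the blank set was 0.492 percentage points higher with arsenite in the nucleus and changed by -1.59 points in the cytoplasm, with every library on its group's side. This difference was not tested.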

How the results depend on the processing

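Counts of called unannotated peaks are given by setting, from the value in the report. Counts over all peaks also moved with most of these settings, so a changed count is not particular to unannotated peaks. Nuclear against cytoplasmic in mock (79 higher and 372 lower) gave 161 and 202 among peaks above 0 in every library, with the named set at 145 and 36 against 73 and 76. Nuclear against cytoplasmic with arsenite (61 calls) gave 29 with the pseudocount divided by 4, 136 with no filter, 247 among peaks above 0 in every library, 109 with centred libraries and 168 with edgeR. Arsenite against mock in the cytoplasm (163) gave 837 with the pseudocount divided by 4, where the balance turned from 62 higher and 101 lower to 675 higher and 162 lower, 463 among peaks above 0 in every library, 345 with edgeR and 272 with the replicate block. Correlations between the deviations of same-numbered libraries ran from -0.0416 to 0.112. Most peaks held few tags, and counting noise keeps such correlations low, so they cannot tell whether these libraries were paired. In the nucleus (24) there were 3 with the pseudocount divided by 4, 59 with no filter, 108 above 0 in every library (59 higher and 49 lower, against 21 and 3) and 47 with edgeR. The interaction (92) gave 160 without the trend.

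For the enriched libraries (0 calls each, with limma unreliable on simulated data), NLS against NES in mock gave 9 with the pseudocount divided by 4, 3 with no filter, 10 when scaled to tags in peaks, 1 with edgeR, 43 with pairs counted once, 389 within JL0388 and 258 within JL1024. With arsenite it gave 5, 5, 8 and 2 for the first 4 of these and 3 among peaks above 0 in every library. G3BP against NES in mock gave 3 with no filter and 31 within JL0388. With arsenite it gave 3 with the pseudocount divided by 4 and 2 with it multiplied by 4, 2 with no filter, 5 above 0 in every library, 8 with edgeR and 293 within JL1024. Scaling to tags in peaks moved the median log2 difference of all peaks by -0.21 to -0.59 in these comparisons.

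With 1 library left out, calls ran from 0 to 1827 for nuclear against cytoplasmic in mock and 0 to 4 with arsenite, 0 to 2180 for arsenite in the cytoplasm and 0 to 1164 in the nucleus, 53 to 130 for the interaction, 0 to 38 for NLS against NES in mock and 0 to 0 for the other 3 enriched comparisons. Over all peaks the first 4 of these ranges were 0 to 16620, 0 to 57, 0 to 16959 and 1 to 8614. Named peaks often lost their call: 55 of 274 values for nuclear against cytoplasmic in mock, 93 of 208 with arsenite, 34 of 207 for arsenite in the cytoplasm, 66 of 150 in the nucleus and 13 of 238 for the interaction. In the first 4 comparisons every named called peak (20, 15, 15 and 11) lost it at least once, as did 4 of 14 for the interaction, and none reversed its direction.

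The median distance was 426133 nt to sites seen in at least 6 fraction libraries and 379917 nt on the opposite strand. As shares of each library's total, the unannotated peaks took 3.52%, 3.76%, 3.85% and 4.08% (nuclear mock, nuclear arsenite, cytoplasmic mock, cytoplasmic arsenite). Without the 10 highest peaks, the shares of tags in peaks were 10.3% in nuclear arsenite, 8.89% in cytoplasmic mock and 10.5% in cytoplasmic arsenite libraries. Clusters numbered 19877 at gaps of up to 5000 nt, and TTTTT was in 75% with 40 nt added on each side. Precision was lowest in the enriched libraries, with 519 to 86419 tags in peaks.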
